A study of Mus musculus with 13 samples.

Results

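The 6 ligands Egf, Btc, Hbegf, Areg, Ereg and Tgfa and the 4 receptors Egfr, Erbb2, Erbb3 and Erbb4 were followed through kidneys of a pair of mouse models of polycystic kidney disease. These 10 genes were taken by name from the 28183 genes of the kidney table, and all 10 were found. The Pkd1 model paired KSP/Cre with homozygous floxed Pkd1 and was sampled at postnatal day 10. KSP/Cre is a recombinase under the promoter of Cdh16 (kidney-specific cadherin), active in tubule epithelium. The Pkd2 model paired Pkhd1/Cre, which acts in collecting ducts, with homozygous floxed Pkd2 and was sampled at postnatal day 20. Controls carried the same floxed alleles without Cre (KSP/Cre-;Pkd1f/f and Pkhd1/Cre-;Pkd2f/f), all mice were C57BL/6, and each of the 4 groups had 2 libraries. Whole kidneys hold many cells that Cre does not reach. A second table gave the mIMCD-3 line, derived from mouse inner medullary collecting duct, 48 hours after transfection at 10 nM with either a control gapmer (2 libraries) or one directed at Hoxb3os, a long noncoding RNA (3 libraries). A gapmer is an antisense oligonucleotide that directs RNase H to its target RNA.

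The ligands are made as membrane-anchored precursors that metalloproteases release. EGF, TGF-alpha and amphiregulin (Areg) bind EGFR, whereas betacellulin (Btc), heparin-binding EGF-like growth factor (Hbegf) and epiregulin (Ereg) bind both EGFR and ERBB4. ERBB2 has no known ligand of its own and acts as a partner for the others, and ERBB3 has an impaired kinase and signals through its partners. The receptors signal through RAS and the kinase ERK, among other routes. In the kidney, Egf is made mainly in the thick ascending limb and the distal convoluted tubule and is released into urine.

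The values are the authors' scaled signal per gene, proportional to reads. The reads behind them came to 30.66 to 94.43 M per library, and 8 of the 10 genes passed the filter on low values (at least 1 in at least 2 libraries), as did 14637 genes in all. Whether the replicates came from separate animals is not stated in the labels. The replicates of Pkd1 controls differed in sex markers (Xist 0.221 and 416, summed Y-linked genes 155 and 10.4), so they were not 1 animal. The same held for Pkd2 knockouts (Xist 1.74 and 449, summed Y-linked genes 169 and 0.0462). The p-values reflect the spread between libraries, which in the other groups may be technical. Sex was not balanced: the summed Y-linked genes ranged from 0.0221 to 183 between libraries. Each of the Pkd1 control and Pkd2 knockout groups held 1 library high and 1 low in Xist. Both Pkd1 knockouts were high in Y-linked genes (149 and 183) with Xist at 25.3 and 27.7. Both Pkd2 controls were high in Xist (346 and 350) and low in Y-linked genes (0.104 and 0.0221). The mitochondrial genome gave 27.4% and 38.7% of the signal for Pkd1 controls against 22% and 22.5% for Pkd1 knockouts, and 41.4% and 41.3% against 34.7% and 30.1% in the Pkd2 model. On the first principal component the Pkd2 knockout replicates lay at -0.765 and 33.4, farther apart than those of any other group. The titles of the Pkd2 knockouts carry "WT" while their genotype and description name a knockout, and they were grouped by the latter. Pkd1 and Pkd2 transcript levels do not check the labels, since cells without Cre remain and the deleted exons are a part of each transcript.

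Egf fell and Btc rose in the knockouts of both models. Egf was 16-fold lower in Pkd1 knockouts and 11.1-fold lower in Pkd2 knockouts, as a ratio of group means, while Btc was 9.94-fold and 3.86-fold higher. Hbegf was called higher in both models, Egfr and Erbb4 in the Pkd1 model and Tgfa in the Pkd2 model. Of the 8 genes tested, 4 were called higher and 1 lower in Pkd1 knockouts, against 5.11% of all tested genes called higher and 5.48% called lower. In Pkd2 knockouts 3 were called higher and 1 lower, where 9.54% of all tested genes were called higher and 8.13% lower. With mitochondrially encoded genes left out and libraries rescaled, Btc was the only one of the 4 genes still called higher in Pkd1 knockouts, and the 3 calls in Pkd2 knockouts held. A call here is a Benjamini-Hochberg adjusted p below 0.05 in limma, over all tested genes.

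The promoters of Egf and Btc, the pair that moved in opposite directions, are shown as the 250 bases before the RefSeq start (for Egf, the first of 2 listed) on GRCm38.p6, 5′ to 3′ on the strand of each gene. The Egf window is chr3:129755323-129755572 and the Btc window chr5:91402995-91403244, both on the minus strand.
Egf: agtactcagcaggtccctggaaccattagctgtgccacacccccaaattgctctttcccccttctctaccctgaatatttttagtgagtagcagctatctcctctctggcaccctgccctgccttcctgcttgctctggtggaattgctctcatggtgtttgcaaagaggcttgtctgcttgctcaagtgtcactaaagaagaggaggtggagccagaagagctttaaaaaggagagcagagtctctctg
Btc: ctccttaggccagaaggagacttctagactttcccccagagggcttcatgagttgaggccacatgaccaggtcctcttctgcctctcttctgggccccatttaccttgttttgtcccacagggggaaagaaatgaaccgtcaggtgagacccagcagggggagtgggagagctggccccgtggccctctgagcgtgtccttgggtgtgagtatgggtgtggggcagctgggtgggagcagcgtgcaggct
Capitals would mark a match, on either strand, to AP-1 (TGANTCA), CRE (TGACGTCA), TEAD (GGAATG) or a TATA motif (TATAAA), and neither window held one. These motifs occur in 6.75%, 1.55%, 12.6% and 12.4% of 32851 RefSeq windows of this length, in that order. The absence of a match says only that these letters are not in these windows. Of the 10 genes, 7 had an entry in the RefSeq table, and the only matches among them were a CRE and a TATA motif at Areg, 61 and 31 bases before the start, and a TEAD motif at Erbb2, 88 bases before it.

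Egf (ENSMUSG00000028017.5; mm10 chr3:129677565-129755316, minus strand) is the ligand that gave the family its name. Its signal was 59.4 and 47.0 for Pkd1 controls and 2.69 and 3.94 for Pkd1 knockouts. It was 1506 and 1682 for Pkd2 controls and 180 and 107 for Pkd2 knockouts. The order from high to low was therefore Pkd2 controls, Pkd2 knockouts, Pkd1 controls and Pkd1 knockouts, and no library of one group lay within the range of another. On the log2(value + 1) scale, which understates changes of low genes, Egf fell by 3.66 ± 0.27 (SE, n = 2 per group; limma adjusted p = 0.00048) in the Pkd1 model and by 3.51 ± 0.27 (limma adjusted p = 0.00034) in the Pkd2 model. Both calls held in all 18 alternatives tried, with adjusted p up to 0.024 and 0.016. Between control groups, Egf was 30-fold higher at day 20 than at day 10 (4.89 ± 0.27, limma adjusted p = 0.00015), the only one of the 8 genes called, where 5.04% of all tested genes were called higher and 7.26% lower. Age and the floxed gene cannot be told apart in that comparison, which shares its libraries with the knockout comparisons.

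**Figure D1:**
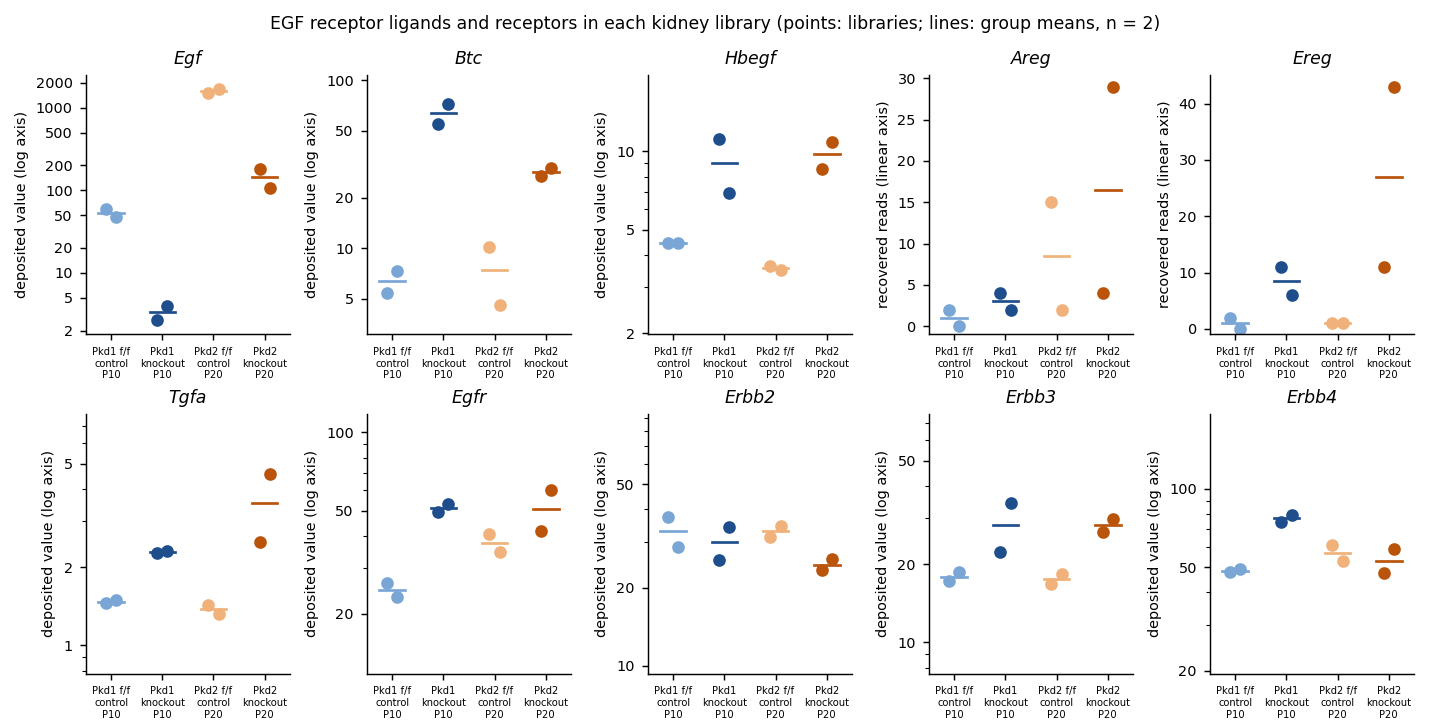
Values of the 10 genes in each of the 8 kidney libraries, as deposited signal on log axes, and as recovered reads on linear axes for Areg and Ereg; points are libraries and short lines are means of 2. Egf spans from 2.69 to 1682 and is lower in both knockout groups, whereas Btc lies at 4.61 to 10.2 in the controls and at 26.9 to 71.9 in the knockouts.

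Some markers of the tubule segments that make Egf moved with it, and others were not called. Of 9 thick ascending limb markers, 4 fell and none rose in the Pkd1 model, and 6 fell and none rose in the Pkd2 model. For these and the other tubule segments, the background was 5.48% and 8.13% of all tested genes called lower. Between control groups, 5.04% were called higher at day 20. Cldn16 and Cldn19, of the thick ascending limb list, were not called in any of these comparisons. They lay above 0 in the Pkd1 model (0.51 and 0.11) and below 0 in the Pkd2 model (-0.11 and -0.60). Between control groups they changed by 0.01 and 0.04, where Egf changed by 4.89. Umod, which encodes uromodulin, the main protein of normal urine, was at 172 and 119 for Pkd1 controls, 49.8 and 72.5 for Pkd1 knockouts, 585 and 731 for Pkd2 controls and 294 and 303 for Pkd2 knockouts. Umod was thus lower in every knockout library than in its controls, with log2 changes of -1.24 and -1.13, smaller than those of Egf. Slc12a1, the sodium-potassium-chloride cotransporter of the thick ascending limb, changed by -1.33 (limma adjusted p = 0.03) and -2.13 (limma adjusted p = 0.0032). The summed signal of the 9 markers was 949 to 1144 in Pkd1 controls and 383 to 561 in Pkd1 knockouts, then 2725 to 2982 and 823 to 941 in the Pkd2 model. With 1 library left out, the count of these markers called lower ranged from 0 to 5 in the Pkd1 model and from 4 to 7 in the Pkd2 model. In bulk kidney, fewer cells of a type and less RNA per cell cannot be told apart.

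Of 8 distal convoluted tubule markers, 4 fell in the Pkd1 model and 7 in the Pkd2 model, and none rose. Slc12a3, the thiazide-sensitive cotransporter, changed by -1.74 (limma adjusted p = 0.0042) and -1.60 (limma adjusted p = 0.0036). Pvalb, a calcium-binding protein of the early part of this segment, was at 1.57 and 1.46 for Pkd1 controls and 0 and 0.0423 for Pkd1 knockouts. The summed signal of the 8 markers was 218 to 224 and 94.7 to 121 in the Pkd1 model, and 338 to 432 and 94.7 to 123 in the Pkd2 model. Calls among these markers ranged from 1 to 5 and from 4 to 7 with 1 library left out. Proximal tubule markers, from a segment not known as a main source of Egf, fell as well, 6 of 8 in each model, with summed signals of 2150 to 2308 against 667 to 861 and 3555 to 4409 against 1278 to 1957. The count of proximal markers called ranged from 3 to 7 and from 0 to 7 with 1 library left out. The part of these markers in the Egf result was not tested. Between control groups, 6 of 9 thick ascending limb markers, 3 of 8 distal convoluted tubule markers and 1 of 8 proximal markers were higher at day 20, counts that ranged from 3 to 7, 1 to 3 and 0 to 5 with 1 library left out.

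**Figure D2:**
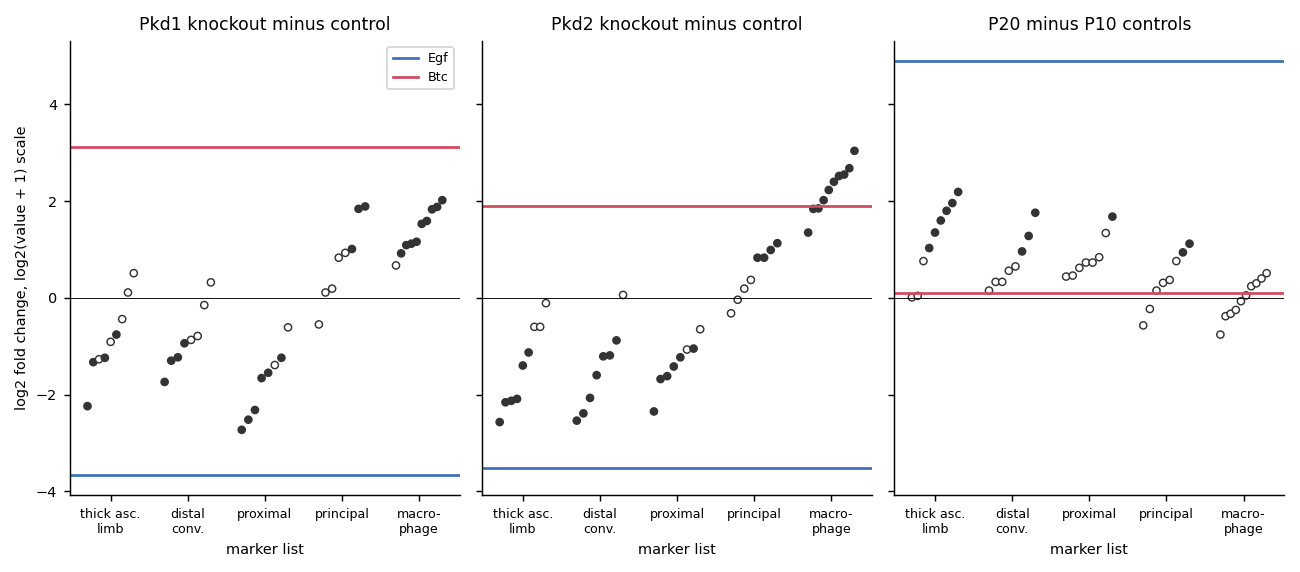
Log2 fold changes of marker genes in 5 lists (points; filled where the limma adjusted p is below 0.05, open where not) for each comparison, with Egf and Btc as horizontal lines. On this log2(value + 1) scale, Egf lies below every plotted marker in both knockout comparisons and above them in the comparison of controls. Btc lies above every thick ascending limb, distal convoluted and proximal tubule marker in both knockout comparisons. The scale understates changes of low genes, so the order can differ for ratios of deposited values. Pvalb, for example, was at 1.57 and 1.46 for Pkd1 controls and 0 and 0.0423 for Pkd1 knockouts.

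The 5 genes with the pattern nearest to Egf over the 8 libraries, by root mean square difference of centred log2 values among 9493 genes, were Dnase1 (0.873), Ppp1r1b (1.45), Gc (1.51), Klk1 (1.60) and Acox2 (1.61). Dnase1, the secreted deoxyribonuclease I, was at 5.52 and 6.71 for Pkd1 controls, 0.816 and 1.06 for Pkd1 knockouts, 143 and 144 for Pkd2 controls and 28.3 and 17.9 for Pkd2 knockouts. Its range was narrower than that of Egf, with the same order of the 4 groups. Klk1, a tissue kallikrein, has close paralogs whose reads could have been shared with it.

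EGF is known to regulate magnesium transport in the distal convoluted tubule. Of 9 genes of that process 8 were tested, and 1 fell in the Pkd1 model and 2 fell in the Pkd2 model. Of all tested genes, 5.48% and 8.13% were called lower, and so few calls were not tested against that background. Fxyd2, a subunit regulating the sodium pump, changed by -1.31 (limma adjusted p = 0.047) and -1.87 (limma adjusted p = 0.0088), and Pcbd1, a coactivator of HNF1 factors, by -1.13 (limma adjusted p = 0.021) in the Pkd2 model. Trpm6, the magnesium channel that EGF is known to stimulate, was at 2.36 and 3.06 for Pkd1 controls, 3.25 and 3.98 for Pkd1 knockouts, 5.69 and 4.04 for Pkd2 controls and 3.22 and 7.70 for Pkd2 knockouts, and was not called in either model (limma adjusted p = 0.57 and 0.91). The calls of Fxyd2 and Pcbd1 were each lost without some single library: Fxyd2 without any of the Pkd1 model's libraries or either Pkd2 control in the Pkd1 model and without either Pkd2 control in the Pkd2 model (adjusted p up to 0.21 and 0.062), and Pcbd1 without either Pkd2 control or Pkd2 knockout replicate 2 (up to 0.12).

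Btc (ENSMUSG00000082361.4; mm10 chr5:91357261-91402994, minus strand) encodes betacellulin. Its signal was 5.43 and 7.32 for Pkd1 controls and 54.9 and 71.9 for Pkd1 knockouts. It was 10.2 and 4.61 for Pkd2 controls and 26.9 and 30.2 for Pkd2 knockouts. The control groups overlapped each other, and all knockout libraries lay above all controls, with Pkd1 knockouts above Pkd2 knockouts. Btc rose by 3.12 ± 0.31 (log2 scale; limma adjusted p = 0.0014) and by 1.90 ± 0.31 (limma adjusted p = 0.0051). The Pkd1 call held in all 18 alternatives, and the Pkd2 call in 17 of 18, the exception being the fit without a filter (adjusted p = 0.057). The Pkd1 effect exceeded the Pkd2 effect by 1.23 ± 0.44, which was not called (limma adjusted p = 0.44 over all genes) and was called in 1 of 17 alternatives.

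Among the 5 genes nearest to Btc in pattern, by the same measure, were Mcoln3 (0.32), Npy6r (0.362), Mal2 (0.382) and Sulf1 (0.407). Mcoln3, which encodes a cation channel of endosomes and lysosomes, was at 5.45 and 5.73 for Pkd1 controls, 29.2 and 44.3 for Pkd1 knockouts, 6.94 and 4.68 for Pkd2 controls and 25.2 and 28.6 for Pkd2 knockouts. As with Btc, the control groups of Mcoln3 overlapped, all knockout libraries lay above all controls and the Pkd1 knockouts were highest. Of 8 principal cell markers, from the collecting duct cells that Pkhd1/Cre reaches, 3 rose in the Pkd1 model and 4 in the Pkd2 model. Of all tested genes, 5.11% and 9.54% were called higher. Summed signals were 114 to 148 against 235 to 402 and 176 to 207 against 222 to 249. Not all 8 markers moved up: 1 lay below 0 in the Pkd1 model and 2 in the Pkd2 model. Aqp2 lay below 0 in both (-0.55 and -0.32, limma adjusted p = 0.72 and 0.83), at 4.41 and 56.2 for Pkd1 knockouts. The count called ranged from 2 to 4 and from 0 to 4 with 1 library left out.

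All called markers of the lists for cells outside the tubule were higher in the knockouts. Of all tested genes, 5.11% were called higher in the Pkd1 model and 9.54% in the Pkd2 model. Not every marker moved up: of the 7 fibroblast and myofibroblast markers, 4 lay above 0 and 3 below in the Pkd1 model. In the Pkd2 model all 7 lay above 0. Of 10 macrophage markers 9 rose in the Pkd1 model and 10 in the Pkd2 model, with summed signals of 55.0 to 59.3 against 154 to 166 and 62.1 to 62.2 against 261 to 341; the count ranged from 4 to 10 in the Pkd1 model with 1 library left out and stayed at 10 in the Pkd2 model. Of 7 fibroblast and myofibroblast markers, 2 rose in the Pkd1 model and 4 in the Pkd2 model, with sums of 901 to 1302 against 2012 to 2283 and 597 to 636 against 1290 to 1480; with 1 library left out the count stayed at 2 in the Pkd1 model and ranged from 2 to 4 in the Pkd2 model. Among mast cell, basophil and lymphocyte markers 2 of 8 were tested, Gata3 and Kit, and which kidney cells their signal came from was not tested. Of these, 1 rose in the Pkd2 model, Gata3 (0.76, limma adjusted p = 0.031). Among urothelium markers, 6 of 7 were tested and 1 rose in each model. Each of these single calls was lost in some fit with 1 library left out, where the urothelium counts ranged from 0 to 2 and from 0 to 1 and the mast cell, basophil and lymphocyte count in the Pkd2 model from 0 to 1. Their part in the rise of Btc and of the other ligands was not tested.

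Btc, Areg and Ereg lie within 376 kb of chromosome 5 together with Epgn, which encodes the ligand epigen. Of the 5 genes listed between the start of Epgn and the end of Btc, Btc alone passed the filter on low values. Ereg (ENSMUSG00000029377.5; chr5:91074622-91093646, plus strand) had 2 and 0 recovered reads in the Pkd1 controls, 11 and 6 for Pkd1 knockouts, 1 and 1 for Pkd2 controls and 11 and 43 for Pkd2 knockouts. Every knockout library thus held more Ereg reads than any control, at levels near the limit of detection. After the deposited scaling, the summed reads stood at a ratio of 13.6 in the Pkd1 model (95% exact binomial interval 3.23 to 121) and 28.7 in the Pkd2 model (7.56 to 243), intervals that cover counting error only. In the authors' deposited table, Ereg had log2 fold changes of -3.55 (adjusted p = 0.0014) and -4.67 (adjusted p = 8.7e-08) as control minus knockout. Without a filter, edgeR's quasi-likelihood test on the recovered reads, added after the data were seen, called it in both models (adjusted p = 0.0064 and 2e-05), whereas limma on log2(value + 1) did not (adjusted p = 0.64 and 0.13).

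Areg (ENSMUSG00000029378.5; chr5:91139599-91148432, plus strand) had 2 and 0 reads in the Pkd1 controls, 4 and 2 for Pkd1 knockouts, 15 and 2 for Pkd2 controls and 4 and 29 for Pkd2 knockouts. Its Pkd2 groups overlapped, and the replicates of each Pkd2 group differed more than the groups did. The ratio of summed, scaled reads was 4.80 (0.858 to 48.6) in the Pkd1 model and 2.06 (1.12 to 3.95) in the Pkd2 model. Neither limma nor edgeR called Areg in a knockout comparison, and its adjusted p in the authors' deposited table was 0.28 and 0.36. Epgn was at 0.0082 and 0 for Pkd1 controls, 0.191 and 0.254 for Pkd1 knockouts, 0 and 0 for Pkd2 controls and 0 and 0.0462 for Pkd2 knockouts, below the level at which it was tested.

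Hbegf (ENSMUSG00000024486.5), whose product binds heparin and is shed from the cell surface, had a signal of 4.44 and 4.46 for Pkd1 controls and 11.2 and 6.92 for Pkd1 knockouts. It was 3.61 and 3.49 for Pkd2 controls and 8.58 and 10.9 for Pkd2 knockouts. Knockouts lay above controls in both models, and the knockout groups overlapped each other. Hbegf rose by 0.85 ± 0.23 (log2 scale; limma adjusted p = 0.047) in the Pkd1 model and by 1.23 ± 0.23 (limma adjusted p = 0.0084) in the Pkd2 model. The Pkd1 call held in 8 of 18 alternatives. It was lost without either Pkd1 control, without Pkd1 knockout replicate 1 (log2 change 0.54) and without either Pkd2 control. With all libraries kept, it was lost with Xist as a covariate, with each model fitted alone and with the replicate block. It was also lost without the filter and without mitochondrially encoded genes. The Pkd2 call held in 15 of 18 and was lost without Pkd2 control replicate 1 (adjusted p = 0.055) or 2 (0.067).

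Tgfa (ENSMUSG00000029999.12; chr6:86195251-86275639, plus strand), which encodes TGF-alpha, was low, at 1.45 and 1.49 for Pkd1 controls, 2.26 and 2.31 for Pkd1 knockouts, 1.43 and 1.32 for Pkd2 controls and 2.49 and 4.58 for Pkd2 knockouts. All knockout libraries lay above all controls. Tgfa rose by 0.89 ± 0.22 (log2 scale; limma adjusted p = 0.027) in the Pkd2 model, while the Pkd1 difference of 0.41 (95% interval -0.09 to 0.92) was not called (limma adjusted p = 0.27). Without Pkd2 knockout replicate 2, the highest library, the Pkd2 change was 0.56 and no longer called (adjusted p = 0.11). The call was also lost without either Pkd2 control (0.11 and 0.15) and without either Pkd1 control (both 0.05 after rounding), and held in 11 of 18 alternatives.

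**Figure D3:**
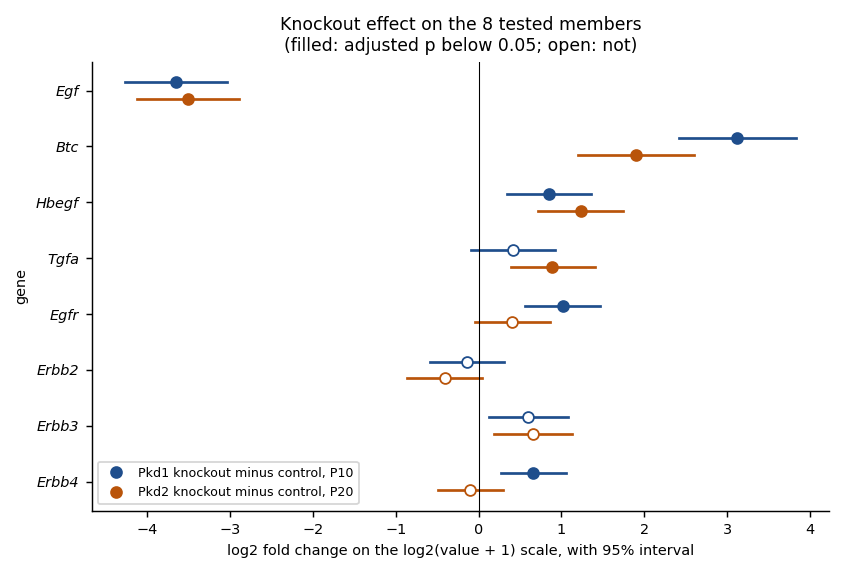
Log2 fold change of each of the 8 tested genes, knockout minus control, with its 95% interval from limma, in the Pkd1 (blue) and Pkd2 (orange) models; filled points have an adjusted p below 0.05. Egf lies at -3.66 and -3.51, Btc at 3.12 and 1.90, and the other 6 genes lie between -0.41 and 1.23.

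Set per kilobase of exon, for a rough comparison of genes of different length, the makeup of the ligand signal turned from Egf to Btc in the Pkd1 model. The lengths are unions over all annotated exons of a gene (11.3 kb for Egf and 4.52 kb for Btc). They can exceed the length of the transcript expressed, which would lower the share of that gene. Egf made up 69.1% and 60.0% of the summed signal of the 6 ligands for Pkd1 controls and 1.58% and 1.93% for the knockouts, while Btc went from 15.7% and 23.4% to 80.2% and 87.8%. In the Pkd2 model Egf made up 97.4% and 98.7% in the controls and 65.8% and 47.5% in the knockouts, and Btc went from 1.64% and 0.675% to 24.6% and 33.6%. Egf remained the most abundant ligand per kilobase in both Pkd2 knockout libraries, where it stood at 2.68 and 1.41 times Btc. Without Egf, the summed signal per kilobase of the other 5 ligands was 2.36 and 2.77 for Pkd1 controls, 14.9 and 17.8 for Pkd1 knockouts, 3.55 and 1.99 for Pkd2 controls and 8.29 and 10.4 for Pkd2 knockouts. These shares follow from the values above and were not tested.

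**Figure D4:**
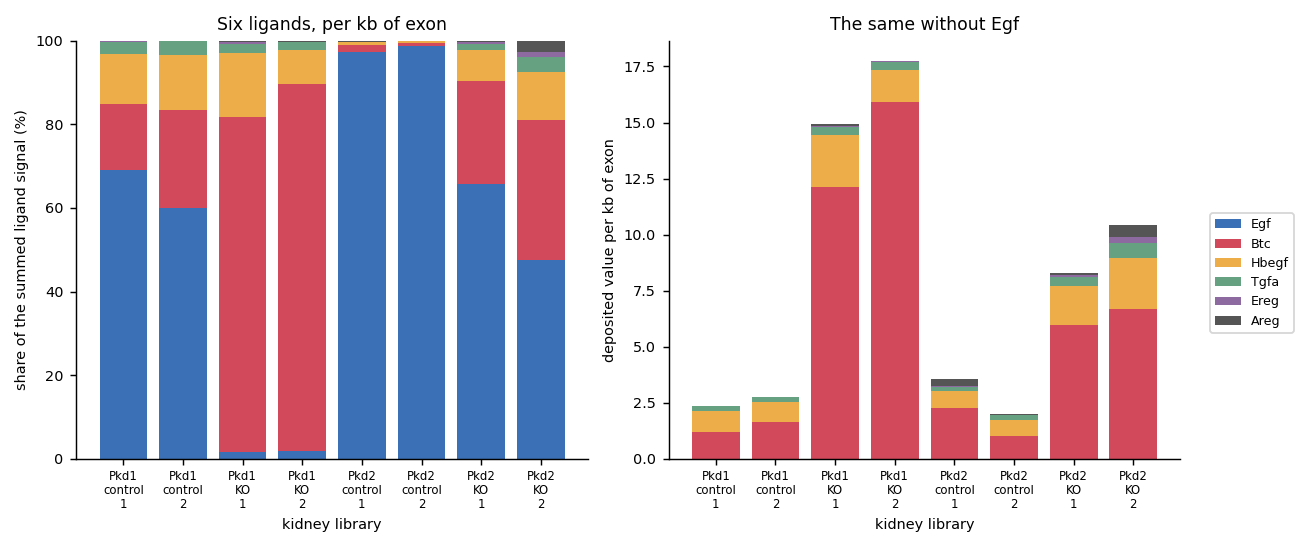
Left, share of each ligand in the summed signal per kilobase of exon of the 6 ligands in each kidney library (%); right, the same signal without Egf, as deposited value per kilobase. Btc takes 80.2% and 87.8% of the sum in the Pkd1 knockouts, and the sum without Egf is higher in every knockout library (8.29 to 17.8) than in any control (1.99 to 3.55).

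The receptors moved less than Egf and Btc. Egfr (ENSMUSG00000020122.14; chr11:16752203-16918158, plus strand) had a signal of 26.4 and 23.2 for Pkd1 controls and 49.2 and 52.9 for Pkd1 knockouts. It was 40.6 and 34.6 for Pkd2 controls and 41.7 and 59.8 for Pkd2 knockouts, where replicate 1 lay just above the controls. Egfr rose by 1.02 ± 0.20 (log2 scale; limma adjusted p = 0.017) in the Pkd1 model, 2.06-fold in means, and the Pkd2 difference of 0.40 (95% interval -0.05 to 0.86) was not called (limma adjusted p = 0.2). The Pkd1 call held in 12 of 18 alternatives and was lost without any of the 4 Pkd1 model libraries (adjusted p from 0.067 to 0.1). Without Pkd2 knockout replicate 1, Egfr was called in the Pkd2 model too (0.66, adjusted p = 0.032). The difference between the models, 0.61 ± 0.29, was not called (limma adjusted p = 0.65).

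Erbb4 (ENSMUSG00000062209.13; chr1:68032186-69108059, minus strand), a receptor for betacellulin and the neuregulins, was at 47.9 and 49 for Pkd1 controls and 74.4 and 79.6 for Pkd1 knockouts. It was at 60.7 and 53 for Pkd2 controls and 47.5 and 58.5 for Pkd2 knockouts. The Pkd1 groups were apart and the Pkd2 groups overlapped. Erbb4 rose by 0.66 ± 0.17 (log2 scale; limma adjusted p = 0.044) in the Pkd1 model and differed by -0.10 (95% interval -0.49 to 0.29; limma adjusted p = 0.71) in the Pkd2 model. The effects differed by 0.76 ± 0.24, which was not called (limma adjusted p = 0.38). The Pkd1 call held in 9 of 18 alternatives and was lost without any Pkd1 model library (adjusted p from 0.14 to 0.18) and without either Pkd2 control (both 0.087).

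Erbb3 (ENSMUSG00000018166.8; chr10:128567523-128589652, minus strand) was at 17.2 and 18.6 for Pkd1 controls, 22.3 and 34.3 for Pkd1 knockouts, 16.7 and 18.3 for Pkd2 controls and 26.5 and 29.9 for Pkd2 knockouts. Every knockout library lay above every control. The differences of 0.60 (95% interval 0.13 to 1.08) and 0.66 (0.18 to 1.13) were not called after adjustment over all genes (limma adjusted p = 0.1 and 0.063), although edgeR without a filter called both and DESeq2 the Pkd2 difference. With Pkd1 knockout replicate 1 or 2 left out, the Pkd2 difference was called.

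Erbb2 (ENSMUSG00000062312.5; chr11:98412470-98437716, plus strand) was at 37.3 and 28.7 for Pkd1 controls, 25.5 and 34.2 for Pkd1 knockouts, 31.4 and 34.5 for Pkd2 controls and 23.3 and 25.7 for Pkd2 knockouts. The Pkd1 groups overlapped, and both Pkd2 knockouts lay below their controls. Neither difference was called, at -0.14 (95% interval -0.59 to 0.31; limma adjusted p = 0.69) and -0.41 (-0.86 to 0.04; limma adjusted p = 0.19). Per kilobase of exon, Erbb2 made up 44.1% and 37.7% of the receptor signal of Pkd1 controls against 25.8% and 28.1% of that of Pkd1 knockouts, then 34.8% and 38.9% and 27.3% and 24.8% in the Pkd2 model. The summed receptor signal per kilobase ranged from 14.6 to 23.4 over the 8 libraries, a narrower range than that of the ligands, which ran from 6.94 to 151.

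No gene of the family was called for a difference between the Pkd1 and Pkd2 effects by limma, where 0.00683% of all tested genes (1 gene) were called and 1207 had an unadjusted p below 0.05. Btc and Erbb4 were the family members with an unadjusted p below 0.05. DESeq2 and edgeR on the filtered reads called none either, and edgeR without a filter called Btc. The models also differ in age, Cre line and floxed gene, which cannot be told apart.

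Outside the transcripts that ERK is known to induce, 4 lists of other pathway genes together had 3 of 51 tested genes called higher in the Pkd1 model (5.88%, against 5.11% of all tested genes) and 5 of 51 in the Pkd2 model (9.80%, against 9.54%), shares near the background, and none called lower. Of the 5 other ErbB ligands 2 were tested, and Nrg1, which encodes the ERBB3 and ERBB4 ligand neuregulin-1, rose in the Pkd2 model (0.69, limma adjusted p = 0.022). Of 9 sheddases and their cofactors, Adam19, a metalloprotease, rose in the Pkd2 model (1.25, limma adjusted p = 0.0081) and none was called in the Pkd1 model; Adam17 and Adam10, the proteases best known for releasing these ligands, were not called in either. Adam17 was at 68.4 and 80.0 for Pkd1 controls, 98.8 and 89.7 for Pkd1 knockouts, 76.0 and 68.1 for Pkd2 controls and 90.0 and 102 for Pkd2 knockouts, higher in every knockout library than in any control, with differences of 0.34 and 0.41 (limma adjusted p = 0.24 and 0.14). The call of Nrg1 was lost without either Pkd2 control or Pkd2 knockout replicate 2 (adjusted p up to 0.14), and that of Adam19 without Pkd2 control replicate 1 (0.065).

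Of 19 feedback inhibitors of the receptors and of ERK, 2 rose in each model (10.5%, against 5.11% and 9.54% of all tested genes) and none fell. Errfi1, which encodes the receptor inhibitor MIG6, was at 33.0 and 34.8 for Pkd1 controls, 61.4 and 74.8 for Pkd1 knockouts, 175 and 137 for Pkd2 controls and 122 and 162 for Pkd2 knockouts. It rose in the Pkd1 model (0.98, limma adjusted p = 0.022) together with Cblc, a ubiquitin ligase of the CBL family (1.04, limma adjusted p = 0.016), and was higher in the older controls (2.16, limma adjusted p = 0.00098). In the Pkd2 model Spry1 (0.75, limma adjusted p = 0.027), an inhibitor of RAS signalling, and Dusp5 (0.85, limma adjusted p = 0.043), a phosphatase of ERK, rose. Of 21 adaptors and kinases, Nras, a RAS protein, rose in both models (0.82 and 0.77, limma adjusted p = 0.026 and 0.022) and no other was called. None of these 5 genes kept its call in every fit with 1 library left out: the highest adjusted p was 0.1 for Cblc, 0.13 for Errfi1, 0.18 for Spry1, 0.19 for Dusp5, and 0.15 and 0.19 for Nras. Errfi1, and Nras in the Pkd1 model, lost it without any Pkd1 model library, Cblc without Pkd1 control replicate 2 or either Pkd1 knockout, Spry1 without any Pkd2 model library, Nras in the Pkd2 model without either Pkd2 control or Pkd2 knockout replicate 2, and Dusp5 without those 3 or either Pkd1 control.

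Of 11 transcripts induced through ERK 10 were tested, and 4 rose in each model (40%, beside the same background) and none fell, with a median log2 fold change of 0.78 and 0.57, beside -0.00 and -0.01 over all tested genes. Fos, an immediate early gene, was at 0.73 and 0.328 for Pkd1 controls, 27.6 and 13.1 for Pkd1 knockouts, 0.572 and 1.68 for Pkd2 controls and 6.67 and 9.99 for Pkd2 knockouts. Its changes of 3.73 (limma adjusted p = 0.0016) and 2.16 (limma adjusted p = 0.0066) were joined by those of Egr1, another immediate early gene, at 2.48 (limma adjusted p = 0.0057) and 2.09 (limma adjusted p = 0.0076). Mcl1, a survival factor of the BCL2 family, rose in both models (1.02 and 0.71, limma adjusted p = 0.015 and 0.037), Ier3 in the Pkd1 model (1.13, limma adjusted p = 0.011) and Myc in the Pkd2 model (1.98, limma adjusted p = 0.0025). These genes also respond to signals other than EGF receptors. In each model, 6 of the 10 tested transcripts were not called and 2 lay below 0. The calls of Fos in the Pkd1 model and Myc in the Pkd2 model held with any 1 library left out. Egr1 in the Pkd1 model lost its call without Pkd1 control replicate 2 (adjusted p = 0.058), and Fos and Egr1 in the Pkd2 model without Pkd2 control replicate 1 (0.053 and 0.059). Mcl1 lost its Pkd1 call without any Pkd1 model library (up to 0.1) and its Pkd2 call without any library but Pkd2 knockout replicate 1 (up to 0.29), and Ier3 lost its call without either Pkd1 control or Pkd1 knockout replicate 1 (up to 0.082).

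In the mIMCD-3 cells, 3 of the 10 genes were among the 2016 genes of the table. It holds only genes with an adjusted p below 0.05 in the authors' own comparison, so that their presence is a selection. Their differences are given here without a new test. Hbegf had a scaled count of 1224 and 1115 with the control gapmer and 1430, 1381 and 1450 with the Hoxb3os gapmer, and Egfr had 7658 and 7475 against 8790, 8595 and 8520. Both were higher in every Hoxb3os gapmer library than in the controls, by 21.6% for Hbegf and 14.1% for Egfr. Erbb3 was at 2432 and 2617 against 2115, 2183 and 2282, lower in each Hoxb3os gapmer library, a change of -13.1%. The authors' deposited table gives log2 fold changes, gapmer minus control, of 0.25 (adjusted p = 0.001) for Hbegf, 0.18 (adjusted p = 4.5e-05) for Egfr and -0.19 (adjusted p = 0.0069) for Erbb3. Every gene of that table has an adjusted p below 0.05 by selection, so these values add no separate support. In the kidneys, Hbegf was called higher in both models, Egfr in the Pkd1 model, and Erbb3 lay higher in every knockout library without being called. Of the other 7 genes, the levels in these cells were not analysed here.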

How the data were processed

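RNA extracted with Trizol from 8 kidney and 5 mIMCD-3 samples was sequenced, per the labels' protocols. The authors deposited, for each kidney library, a signal that reads from its values as estimated reads over a scaling factor: low values were whole multiples of that of 1 read, and 93.91% to 96.22% of genes came out whole within 0.02 of a read. For the cells the authors deposited a signal of counts over a size factor. Log2 fold changes in the deposited tables run control minus knockout (kidney) or gapmer minus control (cells), and the deposited p-values used are adjusted ones, per the file headers. STAR 2.4.2a, RSEM 1.2.22, Cufflinks 2.2.1 and edgeR (kidneys), STAR 2.4.2a and DESeq2 1.12.3 (cells) and build mm10 appear in the submitters' processing notes. The roles of these tools, the annotation and any use of strand were not given in the sources used, so overlapping and antisense genes could share reads.

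All tests used limma 3.58.1 with a trend (R 4.3.3) on log2(value + 1), for kidney genes that reached 1 in 2 or more libraries, in 1 fit of the 4 groups, and p-values were adjusted by Benjamini-Hochberg over 14637 genes (threshold 0.05). Knockouts were compared with controls in each model, the effects of the models with each other, and older with younger controls. Exon lengths are unions of GENCODE vM21 exons. Alternatives were a pseudocount of 0.1, no filter, quantile scaling, DESeq2 1.42.0 and edgeR 4.0.16 on recovered reads, separate fits per model, the replicate number as a block, removal of mitochondrially encoded genes, and removal of each library in turn. Xist as a covariate and edgeR without a filter were added after seeing the data. The fitting code was tested on simulated data. The 10 genes, the pathway lists and the markers were chosen with earlier results of these data known. All 10 genes were named. Outside the marker lists, genes called in a knockout comparison were named, all of them in lists of up to 8. In longer lists up to 4 per direction and contrast were taken by adjusted p. Markers were given as counts, most with summed signals, except those named below. Also named were the 5 genes nearest in pattern to Egf and Btc (mean value at least 5, with small RNAs, pseudogenes and predicted genes skipped). Of the latter, 1 is not reported here. Trpm6, Adam10, Adam17, Umod, Slc12a1, Slc12a3, Pvalb and Epgn were named for their known roles, after their values were seen. Aqp2, and in the Pkd1 model Cldn16 and Cldn19, were named for directions against those of the called markers of their lists. Gata3 and Kit were named as the only tested members of theirs.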

Additional observations from a re-analysis of the deposited data

How the results depend on the processing

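Egf was called lower in both models and higher in day 20 controls under every alternative tried, and Btc higher in the Pkd1 model under every one. The number of family genes called higher in Pkd1 knockouts, 4 in the report, was 1 without the filter on low values, 1 without mitochondrially encoded genes, 2 with the replicate block and 1 to 4 with 1 library left out. In Pkd2 knockouts the number was 3 in the report, 0 without the filter, 5 by edgeR without a filter and 1 to 4 with 1 library left out. Between controls it was 1, 2 by edgeR without a filter and 1 to 2 with 1 library left out, and for the difference between models 0, or 1 by edgeR without a filter. The cause of these moves was not tested, except that leaving out a library leaves fewer samples and dropping the filter adds genes to the adjustment.

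Over all genes, 1550 were called in the Pkd1 comparison, against 394 without the filter, 727 without mitochondrially encoded genes, 3142 by edgeR without a filter and 332 to 2487 with 1 library left out. The Pkd2 comparison had 2587, against 1292, 1440, 4210 and 669 to 4328 in the same order, and 1366 when fitted alone. Controls of the 2 ages had 1801, against 1010, 952, 3407 and 412 to 2571, and 1141 with Xist as a covariate. The difference between models had 1 gene, against 5 with a pseudocount of 0.1, 0 without the filter, 8 with quantile scaling, 184 by DESeq2, 5 by edgeR, 537 by edgeR without a filter, 0 with the replicate block, 11 without mitochondrially encoded genes, 0 with Xist as a covariate and 0 to 50 with 1 library left out.

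Every reversal was of a difference that was not called. The model difference of Egf (-0.14) was 0.10 with Xist as a covariate and -0.52 to 0.23 with 1 library left out. Between controls, Btc (0.11) was -0.07 without mitochondrially encoded genes, -0.02 with Xist as a covariate and -0.38 to 0.61 with 1 library left out. Tgfa (-0.06) was 0.01 with quantile scaling. Erbb2 (0.01) was -0.04 with quantile scaling, -0.20 without mitochondrially encoded genes, -0.00 by edgeR without a filter and -0.17 to 0.19 with 1 library left out, and Erbb3 (-0.03) was -0.09 to 0.03. Erbb2 in the Pkd1 model (-0.14) was -0.35 to 0.06 with 1 library left out, and its model difference (0.27) was -0.02 without mitochondrially encoded genes. The model difference of Erbb3 (-0.05) was -0.35 to 0.25 with 1 library left out, and Erbb4 in the Pkd2 model (-0.10) was 0.21 without mitochondrially encoded genes and -0.25 to 0.04 with 1 library left out.

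Deviations of same-numbered libraries correlated at -0.378 in the Pkd1 model, -0.049 in the Pkd2 model and 0.339 between the knockout groups. With 2 libraries a group, these values cannot show whether replicate numbers pair the samples. The block took away the Pkd1 calls of Hbegf (adjusted p = 0.068) and Erbb4 (adjusted p = 0.074). Where a group was left with 1 library, it was assumed to vary like the others. With 2 libraries a group, and a few reads of Areg and Ereg per library, small changes were not detectable at this depth.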
